A study of Mus musculus with 3 samples.

Results

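Mature miRNAs with a reported role in the differentiation of myoblasts, outside the large miRNA families, were followed across 3 mouse miRNA arrays: mmu-miR-26a-5p, mmu-miR-128-3p, mmu-miR-146b-5p, mmu-miR-155-5p, mmu-miR-181a-5p, mmu-miR-181b-5p, mmu-miR-181d-5p and mmu-miR-186-5p, written below without the species prefix. They were chosen by name, as reported regulators of myogenesis, by a rule that uses none of their values, although earlier results of these arrays were known. They make up 8 of the 1265 miRNA probes on each array. The arrays held RNA from C2C12, a mouse myoblast line that grows in serum-rich medium and fuses into myotubes when the serum is reduced, and from a subline derived from it. C2C12-PR was C2C12 in proliferation medium (DMEM with 10% FBS), C2C12-DF was C2C12 in differentiation medium (DMEM with 2% horse serum), and W4-08-PR was the subline W4-08 (written W408 in the sample labels) in proliferation medium. W4-08 cells were stably transfected with V5-tagged Wnt4 cDNA behind a CMV promoter and passaged in blasticidin, which the parental cells of both other conditions did not receive, and no empty-vector line was among the arrays. Subline, vector and selection therefore cannot be told apart from Wnt4, and fewer cells of a state and less RNA per cell cannot be told apart either. Each condition had 1 array, so no difference has a replicate check and no test across conditions was made.

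A mature miRNA guides the Argonaute complex to messenger RNAs whose 3′ untranslated regions pair with its seed, bases 2 to 8 counted from its 5′ end, and the messenger is then less stable or less translated. In muscle cells, miR-26a is known to repress Ezh2, a histone methyltransferase that keeps muscle genes silent, and miR-181 represses Hoxa11, a repressor of MyoD. Both therefore favour differentiation. miR-146b, which is better known as an inflammatory miRNA, is reported to favour it as well. miR-155 represses Mef2a, a transcription factor of muscle genes, and miR-186 represses myogenin, so that both hold differentiation back. miR-128, a miRNA best known from neurons, targets components of insulin signalling in muscle cells.

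The mature sequences from RefSeq (GRCm38.p6) are shown because shared seeds decide which members could act on the same messengers and which probes could cross-hybridise. They run 5′ to 3′ with the seed in capitals, and a sequence was found for 8 of 8 members.
mmu-miR-26a-5p: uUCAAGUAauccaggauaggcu
mmu-miR-128-3p: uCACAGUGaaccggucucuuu
mmu-miR-146b-5p: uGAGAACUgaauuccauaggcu
mmu-miR-155-5p: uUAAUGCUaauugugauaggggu
mmu-miR-181a-5p: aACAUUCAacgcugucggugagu
mmu-miR-181b-5p: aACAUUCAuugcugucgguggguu
mmu-miR-181d-5p: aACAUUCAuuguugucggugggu
mmu-miR-186-5p: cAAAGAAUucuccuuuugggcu

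The 8 sequences carried 6 different seeds, since the 3 miR-181 members shared one and every other member had its own. Over the 23 bases that can be lined up from the 5′ end, miR-181a-5p and miR-181b-5p differed by A9U, C10U and A21G, with the base of the first-named miRNA written first. miR-181b-5p and miR-181d-5p differed by C12U alone, and miR-181a-5p and miR-181d-5p by A9U, C10U, C12U and A21G. A probe for 1 of them may therefore also bind the others, and their values are not fully separate measurements. Among their relatives, miR-146b-5p differed from miR-146a-5p (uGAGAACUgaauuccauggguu) by A18G and C21U, and miR-26a-5p shared its seed with miR-26b-5p (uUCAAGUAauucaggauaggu).

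The hairpins lie on several chromosomes (GRCm38.p6), and 5 of the 8 members come only from hairpins inside protein-coding or long non-coding genes. miR-26a is cut from Mir26a-1 at chr9:119031796-119031885 inside Ctdspl and from Mir26a-2 at chr10:126995530-126995613 inside Ctdsp2, genes of small phosphatases. miR-128 comes from Mir128-1 inside R3hdm1 on chromosome 1 and from Mir128-2 inside Arpp21 on chromosome 9. Mir186 lies at chr3:157544279-157544349 inside Zranb2, which encodes a splicing protein. Mir155 lies at chr16:84714140-84714204 within its non-coding host Mir155hg, and Mir146b at chr19:46342762-46342870 within the long non-coding RNA Gm36493. The miR-181 hairpins sit in pairs: Mir181a-1 and Mir181b-1 are 97 bases apart on chromosome 1, Mir181a-2 and Mir181b-2 are 1019 bases apart on chromosome 2 inside Nr6a1 and its antisense gene Nr6a1os, and Mir181d lies 136 bases from the position of mature miR-181c-5p on chromosome 8. An array signal for miR-26a, miR-128, miR-181a or miR-181b sums the products of both of its hairpins.

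Brightness is given as units above background, which is the scanner intensity of a spot after the average of the array's 1664 blank spots, trimmed at both ends, was taken off (95.9, 101 and 99.9 units on C2C12-PR, C2C12-DF and W4-08-PR). The error after each ± is 1 technical SD, made from the spread of the blanks (SD 7.59, 6.83 and 6.43 units) and of the spike controls (coefficient of variation 8.25%). It covers spot noise on 1 array and not the spread between cultures. Units were not scaled between arrays. The authors listed a probe as detected from 11.9, 10.8 and 9.77 units upwards, which 339, 370 and 477 of the 1265 probes passed. The limit was also passed by 7.15%, 6.01% and 6.85% of the blank spots and by 3, 4 and 6 of the 24 negative control spots, the brightest of which stood at 18.3, 19.4 and 16.7 units. As a check of the labelled cell type, the muscle miRNA miR-206-3p gave 54.4, 219 and 1917 units, while miR-1a-3p was detected on W4-08-PR alone, at 31.3 units. Of 20 markers of blood, neural, epithelial, liver and endothelial cells, 3 were detected on each array, and the blood list had the brightest of them, miR-144-3p, at 48.3 units on C2C12-PR. The 6 blood markers summed to 78.3, 36.0 and 29.9 units, and their part in the results was not tested.

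None of the 8 miRNAs reached the 2-fold limit in any of the 3 comparisons, with quantile-normalized values. The number detected was 6 in C2C12-PR, 7 in C2C12-DF and 8 in W4-08-PR, and 6 were detected on all 3 arrays. In brightness above background, not scaled between arrays, miR-186-5p and miR-26a-5p of the W4-08-PR array exceeded their C2C12-PR values by over 3 technical SD. So did miR-26a-5p of the C2C12-DF array. With the offset and quantile normalization, the log2 ratio of miR-26a-5p in W4-08-PR against C2C12-PR was within 2 technical SD of 0 (0.20 ± 0.15). It was 0.61 with the offset and no normalization between arrays. Of the 3 miR-181 members, miR-181a-5p alone gave a normalized ratio past 2 technical SD, in W4-08-PR against C2C12-DF, where it was lower, and this ratio came near 0 under other scalings (-0.09 and -0.05).

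**Figure D1:**
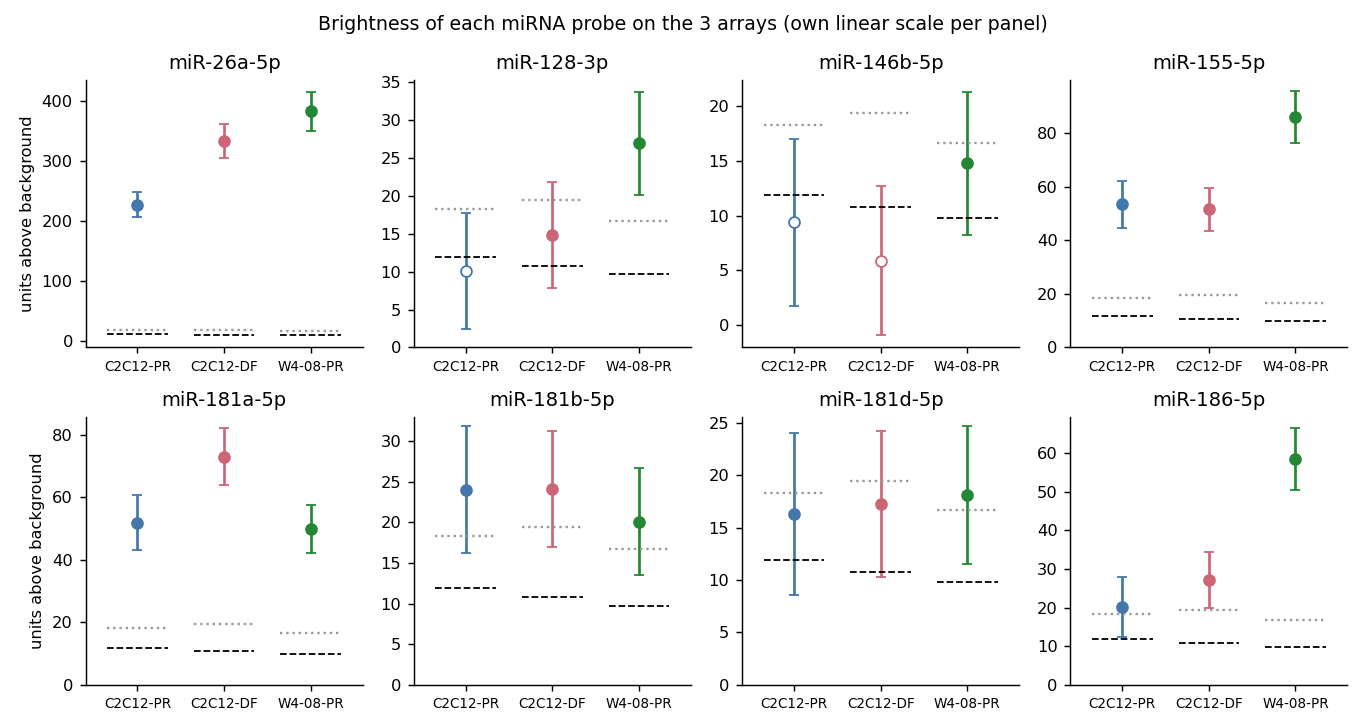
Units above background (vertical axis, linear, own scale in each panel) of the 8 miRNAs on the C2C12-PR, C2C12-DF and W4-08-PR arrays, 1 array each. Bars are 1 technical SD, open circles are values below the detection limit, the dashed line is the lowest detected value and the dotted line the brightest negative control spot of each array. miR-186-5p reads 20.1 and 27.1 units in C2C12 and 58.5 units in W4-08-PR, whereas miR-181d-5p stays near the brightest negative controls (16.3 to 18.1 units) and miR-146b-5p below them (5.86 to 14.8 units).

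The repressor of myogenin, miR-186-5p, read 20.1 ± 7.77 units in C2C12-PR, 27.1 ± 7.19 in C2C12-DF and 58.5 ± 8.03 in W4-08-PR. Both C2C12 cultures were low and within their error of each other, and the Wnt4 line was high. On the C2C12-PR array 20 of the 1664 blank spots were as bright as its probe, on C2C12-DF 1 and on W4-08-PR none. W4-08-PR exceeded C2C12-PR by 38.4 ± 11.2 units and C2C12-DF by 31.3 ± 10.8 units. After normalization the log2 ratio of W4-08-PR to C2C12-PR was 0.38 ± 0.18, that of W4-08-PR to C2C12-DF 0.32 ± 0.15, and that of C2C12-DF to C2C12-PR 0.06 ± 0.19. The first was the highest of the 24 ratios of the members and fell short of the limit, a log2 ratio of 1. With the offset of 50 units that the background correction adds, a probe at 20.1 units in C2C12-PR would have had to reach 137 units in W4-08-PR to be called. With plain background subtraction, which adds no offset, the same log2 ratio was 1.12 with quantile normalization and 1.14 with each array scaled to the median of the 277 probes detected on all 3 arrays. The direction was the same in every setting tried and the call was not.

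The other member known to restrain differentiation, miR-155-5p, read 53.3 ± 8.77 units in C2C12-PR, 51.5 ± 8.04 in C2C12-DF and 86.0 ± 9.57 in W4-08-PR. No blank spot reached it on any of the arrays. The C2C12 cultures lay within 1 technical SD of each other (log2 ratio of C2C12-DF to C2C12-PR -0.03 ± 0.15). W4-08-PR stood 32.7 ± 13.0 units above C2C12-PR and 34.4 ± 12.5 units above C2C12-DF, over 2 but under 3 technical SD. With the offset and quantile normalization the log2 ratios were 0.16 ± 0.13 and 0.19 ± 0.13, within 2 technical SD of 0. With the offset and no normalization between arrays they were 0.34 and 0.36. Plain subtraction with quantile normalization gave 0.31 and 0.38. On the authors' values they were 1.39 and 1.24, past the limit, as were 31.3% and 19.8% of the 514 and 524 probes detected on 1 or both arrays. Only the 302 and 323 probes detected on both have a ratio on that scale, so these shares run low. The other arm of its hairpin, miR-155-3p, was detected on none of the arrays.

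The repressor of Ezh2, miR-26a-5p, was far above background on every array. Its probe gave 228 ± 20.3 units in C2C12-PR, 334 ± 28.3 in C2C12-DF and 384 ± 32.3 in W4-08-PR, so that C2C12-PR was lowest, and C2C12-DF and W4-08-PR lay within 2 technical SD of each other (50.1 ± 43.0 units). The differences from C2C12-PR were 106 ± 34.8 units for C2C12-DF and 156 ± 38.1 units for W4-08-PR, both past 3 technical SD. The normalized log2 ratios were 0.31 ± 0.14 for C2C12-DF against C2C12-PR, 0.20 ± 0.15 for W4-08-PR against C2C12-PR and -0.12 ± 0.16 for W4-08-PR against C2C12-DF. Only the first exceeded 2 technical SD. The second followed the scaling. With the offset it was 0.61 without normalization between arrays and 0.87 with each array scaled to the median of its detected probes. Plain subtraction with quantile normalization gave 0.24. The seed mate miR-26b-5p, which is cut from a hairpin in Ctdsp1, read 60.2, 59.7 and 112 units on the 3 arrays. The C2C12 cultures read alike, with a log2 ratio of 0.00 ± 0.17, and the ratio for W4-08-PR against C2C12-PR was 0.31 ± 0.16.

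Among the miR-181 members, whose differences from each other were not tested, miR-181a-5p gave 52.0 ± 8.72 units in C2C12-PR, 73.0 ± 9.10 in C2C12-DF and 50.002 ± 7.64 in W4-08-PR. It was highest in differentiation medium, and the cultures in proliferation medium were alike within 1 technical SD in these units. The log2 ratio was 0.21 ± 0.13 for C2C12-DF against C2C12-PR, -0.19 ± 0.14 for W4-08-PR against C2C12-PR and -0.40 ± 0.12 for W4-08-PR against C2C12-DF. The last was the lowest normalized ratio of any member and exceeded 3 technical SD, but not the 2-fold limit. In units the same difference was -23.0 ± 11.9, under 2 technical SD. Its size followed the scaling, at -0.09 with each array scaled to the median of its detected probes, -0.05 on the authors' values and -0.98 with plain subtraction scaled to the median, although its sign was the same in every setting. miR-181b-5p, whose hairpins lie next to those of miR-181a, read 24.0 units in C2C12-PR, 24.1 in C2C12-DF and 20.1 in W4-08-PR, with log2 ratios of -0.06 ± 0.18, -0.19 ± 0.18 and -0.13 ± 0.15 in the same order. None of these passed 2 technical SD. miR-181d-5p read 16.3, 17.2 and 18.1 units, all near the brightest negative controls, and as many as 49 blank spots of C2C12-PR were as bright. Its 3 log2 ratios lay within 1 technical SD of 0. Their relative miR-181c-5p was not detected on any array, and of the opposite arms miR-181a-2-3p was detected on W4-08-PR alone, at 17.0 units.

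The remaining members, miR-128-3p and miR-146b-5p, were at the edge of detection. miR-128-3p was below the limit in C2C12-PR at 10.1 ± 7.64 units, where 179 blank spots were as bright, and was detected in C2C12-DF at 14.9 ± 6.94 units and in W4-08-PR at 27.0 ± 6.80 units. W4-08-PR was the array on which it stood above every negative control. Since C2C12-PR gave only a limit, the normalized ratios were bounds, at least 1.04-fold higher in C2C12-DF and at least 1.13-fold higher in W4-08-PR. Both lay within 2 technical SD of no difference, at 4.80 ± 10.3 and 16.9 ± 10.2 units. The 5p arms of its hairpins were detected throughout. miR-128-1-5p read 28.9, 32.4 and 27.4 units, and miR-128-2-5p read 74.99, 54.7 and 103 units on C2C12-PR, C2C12-DF and W4-08-PR. miR-128-2-5p was therefore lowest in C2C12-DF, with a log2 ratio of 0.34 ± 0.15 for W4-08-PR against C2C12-DF, past 2 technical SD, and 0.06 ± 0.16 against C2C12-PR.

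miR-146b-5p read 9.36 and 5.86 units in C2C12-PR and C2C12-DF, below the detection limit on both, and 14.8 ± 6.54 units in W4-08-PR, where 26 blank spots and at least 1 negative control were as bright. Its bound against C2C12-DF was at least 1.01-fold, so that no difference was detectable at this brightness. Neither miR-146a-5p, which carries the same seed, nor the 3p arm of miR-146b was detected on any array.

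**Figure D2:**
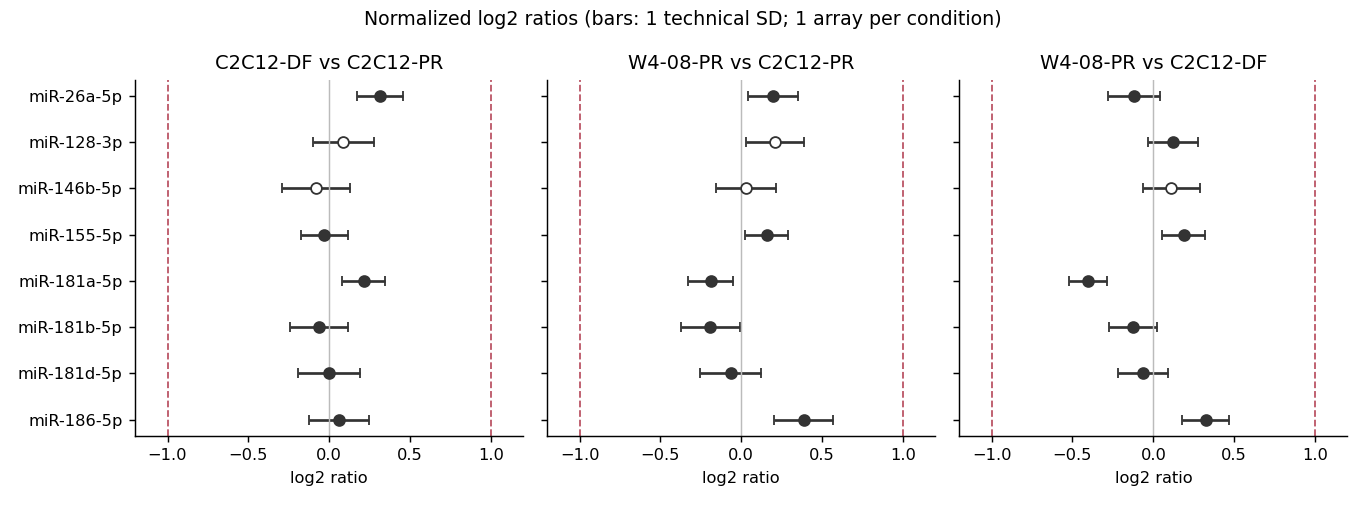
Normalized log2 ratio (horizontal axis) of each miRNA in the 3 comparisons, 1 array per condition. Bars are 1 technical SD, open circles mark a probe undetected on 1 or both arrays, and dashed lines mark the limit of 1 in size. The 24 ratios lie between -0.40 and 0.38.

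Against C2C12-PR, C2C12-DF asks how these miRNAs differ between the media in the parental line. No member was called higher, where 0.708% of the 424 probes detected on 1 or both arrays were, and no member was called lower, where 3.54% were. The median log2 ratio of the 8 members was 0.03, with 4 above 0 and 4 below. For probes detected on both arrays the median was 0.03 over 6 members and 0.04 over all 285. Higher by over 3 technical SD in units were 1 of the 8, miR-26a-5p, and 9.91% of all probes that could be. No member was lower by as much, where 29 of the 424 probes were.

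W4-08-PR against C2C12-PR asks what differs in the Wnt4 line in the same medium. No member was called higher, against 0.584% of 514 probes, and no member lower, against 1.56%. The median of the 8 members was 0.09, with 5 above 0 and 3 below. For probes detected on both arrays the median was 0.05 over 6 members and -0.03 over all 302. Over 3 technical SD higher in units were 2 of the 8, miR-26a-5p and miR-186-5p, and 11.3% of all probes that could be. A share of 2 in 8 rests on too few miRNAs to be set apart from that background. No member was lower by over 3 technical SD in units, where 17 of the 514 probes were.

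W4-08-PR against C2C12-DF asks how the Wnt4 line compares with C2C12 in differentiation medium, and shares an array with each of the comparisons above. No member was called higher or lower, where 1.15% and 1.15% of 524 probes were. The median of the 8 was 0.02, with 4 above 0 and 4 below. For probes detected on both arrays the median was -0.06 over 7 members and -0.03 over all 323. No member was higher by over 3 technical SD in units, where 11.3% of all probes were. No member was lower by as much, where 18 of the 524 probes were.

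**Figure D3:**
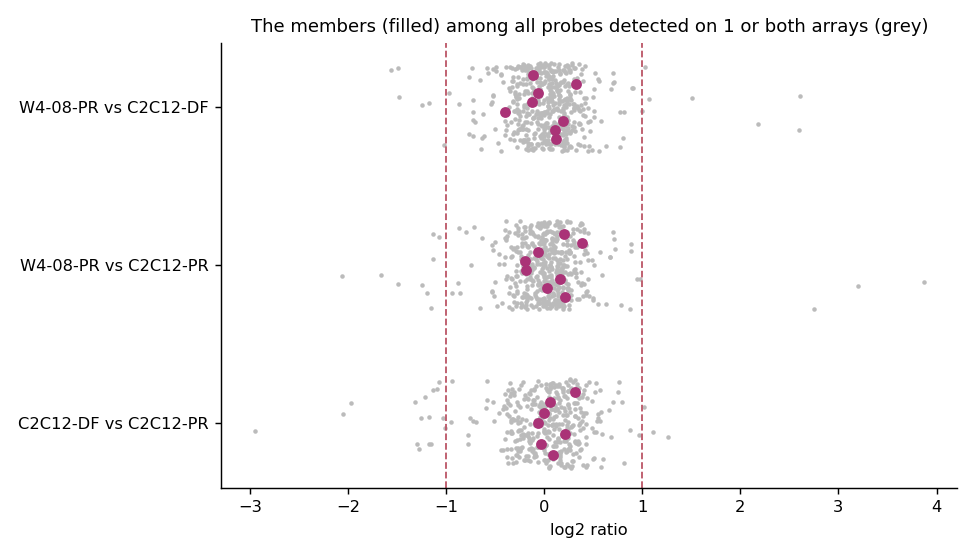
Normalized log2 ratio (horizontal axis) of all probes detected on 1 or both arrays of each comparison, the members as large filled points and all others as small grey points, spread vertically for visibility only. Dashed lines mark the limit of 1 in size, and the members lie in the central mass of points, between -0.40 and 0.38.

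With the offset of 50 units, the brightness of the probes set what could have been called. Suppose a member had dropped to background on the first array of a comparison. Its normalized ratio, before undetected values were raised, would have reached -1 for 1 of 8 in each comparison against C2C12-PR. In W4-08-PR against C2C12-DF it would have done so for 2 of 8. miR-26a-5p was the one in each comparison, and miR-181a-5p the other in the last. A call of miR-181a-5p would have needed 7.22 units or less in W4-08-PR, below the lowest detected value of 9.77 units. An undetected value was raised to that lowest detected value, so this call was out of reach as well. For miR-155-5p, loss to background in W4-08-PR would have given a log2 ratio of -0.95 against C2C12-PR. For the others a lower call was out of reach in this setting. Plain subtraction has no offset, but it raised every dimmer value to the array's lowest detected one, which also limits how far dim members could fall. Reach was not computed for it. It called no member lower, which for dim members does not show that none fell. miR-128-3p would have needed 103 units in W4-08-PR for a higher call against C2C12-PR, and measured 27.0.

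**Figure D4:**
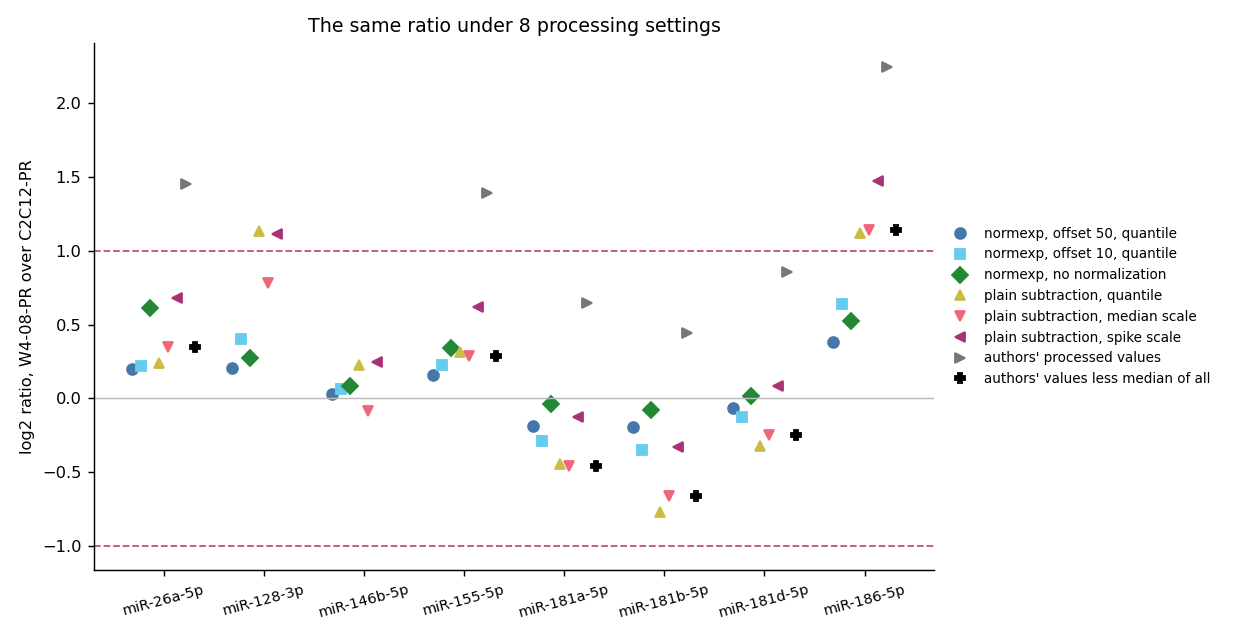
Log2 ratio of W4-08-PR to C2C12-PR (vertical axis) for each miRNA under 8 of the processing settings, 1 array per condition, with dashed lines at the limit of 1 in size. miR-186-5p lies above the limit with plain subtraction or the authors' values (1.12 to 2.25) and below it in the normexp settings drawn (0.38 to 0.64). A further normexp setting, with arrays scaled to the median of the detected probes, gave 0.78 and is not drawn. No point is shown for miR-128-3p and miR-146b-5p with the authors' values, which hold none for them in C2C12-PR.

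How the arrays were scaled moved the whole set of members together. On the authors' processed values, the log2 ratio of W4-08-PR to C2C12-PR had a median of 1.05 for the 277 probes that every array detected and of 1.13 for the 6 members among them, so that the general shift and the members' shift were of like size. On that scale miR-26a-5p, miR-155-5p and miR-186-5p passed the limit, with 31.3% of the 514 probes detected on 1 or both arrays. Only the 302 probes detected on both have a ratio there, so the share among probes that could pass was higher. With the shift of all probes taken off, miR-186-5p alone of the 6 members with a ratio passed the limit, at 1.14, with 3.11% of the same 514 probes. For miR-128-3p, which has no such ratio, plain subtraction with quantile normalization gave 1.13. The direction of miR-181a-5p in W4-08-PR against C2C12-PR also followed the scale, at -0.19 with the offset and quantile normalization and 0.65 on the authors' values.

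The other myogenesis miRNAs that the study cites were measured by 23 probes, 18 of them detected on both arrays in each comparison. In C2C12-DF against C2C12-PR 1 was called higher and none lower, and their median log2 ratio was 0.03. The one called was miR-206-3p, a muscle miRNA induced by MyoD family factors, with a log2 ratio of 1.26 ± 0.14. Of the 424 probes detected on 1 or both of these arrays, 0.708% were called higher and 3.54% lower. The median of the 285 detected on both was 0.04. In W4-08-PR against C2C12-PR 3 of the 23 were called higher and 2 lower, with a median of 0.17. These were miR-206-3p (3.87 ± 0.17), miR-133b-3p (3.20 ± 0.20) and miR-133a-3p (2.75 ± 0.21), and, lower, miR-221-3p (-1.25 ± 0.16) and miR-222-3p (-1.496 ± 0.22), a pair that is high in cycling myoblasts. In that comparison 0.584% of 514 probes were called higher and 1.56% lower, and the median of the 302 detected on both was -0.03. In W4-08-PR against C2C12-DF the same 5 were called in the same directions, and the median was 0.27. There 1.15% of 524 probes were called higher and 1.15% lower, and the median of the 323 detected on both was -0.03.

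Of the members detected on all 3 arrays, miR-181a-5p had the widest range of quantile-normalized log2 values, 0.40. Other settings gave this place to another member (miR-186-5p with plain subtraction, at 1.12), so the neighbours named hold for quantile-normalized values alone. Among the 277 probes detected on all 3, those whose pair of log2 ratios against C2C12-PR lay nearest to its own were miR-6378, miR-1843b-3p, miR-292-3p, miR-1965 and miR-5130, at distances of 0.078 to 0.10. With 3 arrays such nearness is a description of 2 numbers per probe.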

How the data were processed

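RNA of 3 cultures was hybridised to 1 Toray 3D-Gene mouse miRNA array each (single colour, 3200 spots). The deposited files hold scanner intensity per spot and, per probe, the authors' processed intensity, which is less background, set to a median of 25 on each array and present only for detected probes (a limit of about 2 blank SD). The sources used here differ on the RNA extraction reagent. The labels give no replicate, and the precision of each ratio is limited by the number of arrays.

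Spot intensity was corrected with normexp in limma 3.58.1 (R 4.3.3; offset 50, background the blank spots' mean trimmed by 5% at each end), quantile-normalized over the 1265 miRNA probes and put on log2 with no pseudocount. Ratios, bounds and figures were made in Python 3.11.15. A call needs a log2 ratio of 1 or more, or -1 or less, and detection on the brighter array. An undetected dim value was raised to the array's lowest detected value and gives a bound. The authors' values hold none for undetected probes, so on them a probe undetected on 1 array could not be called. No test was made. The script was tested on simulated data. Named were the 8 members, probes of the same numbers, the called probes of the myogenesis list, and the 5 probes nearest to the member of widest range. Members and lists were chosen with earlier results of these data known. Other scalings, background corrections, detection and size limits and the authors' values were tried as alternatives.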

Additional observations from a re-analysis of the deposited data

How the results depend on the processing

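No member was called lower in any comparison, nor called at all in C2C12-DF against C2C12-PR, under any of the 13 alternatives tried. Calls of a higher value appeared in the Wnt4 line under 5 of them. Against C2C12-PR, plain background subtraction called 2 members, miR-128-3p and miR-186-5p (with 4.47% of all probes), and so did plain subtraction scaled to the spike controls (9.73%). Plain subtraction scaled to the median called 1, miR-186-5p (3.31%), the authors' processed values called 3, and the same values centred on the median of the probes detected on all 3 arrays, a setting chosen after seeing the data, called 1. Against C2C12-DF, plain subtraction scaled to the spike controls called 1, miR-186-5p (10.1%), and the authors' values called 3, miR-128-3p, miR-155-5p and miR-186-5p (19.8%). The authors' values hold none for undetected probes, so only 6 members could be called against C2C12-PR there and 7 against C2C12-DF. The shares on those values still count probes without a ratio, and so run low. The offset of 50 units shrinks ratios of dim probes by construction, and the cause of the remaining differences was not tested. Of the members' log2 ratios recomputed, 48 of 68, 27 of 68 and 26 of 70 moved by less than 1 technical SD, and 15, 9 and 10 changed sign, in C2C12-DF against C2C12-PR, W4-08-PR against C2C12-PR and W4-08-PR against C2C12-DF. All members but miR-26a-5p lay at or below 86.0 units on every array, which limits the sizes that could be called, and with 1 array per condition neither culture nor array differences can be told apart from the condition.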
